A study of Mus musculus with 16 samples.

Results

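The regions described here were H3K9me3 peaks of early anagen hair follicle stem cells (EA-HFSCs) that shared at least 1 bp with an H3K27me3 peak of the same cells and with no H3K4me3 peak in any of the 4 sorted populations of the study. Of the 42277 H3K9me3 peaks of EA-HFSCs, 9830 met this rule (23.3%, 95% Wilson interval 22.9 to 23.7%), out of 219698 peaks in the 12 lists of the series. They are called members below. A further 21835 of these H3K9me3 peaks lay on neither mark, 8416 lay on H3K4me3 alone and 2196 lay on both H3K27me3 and H3K4me3. The EA-HFSC lists and the 4 H3K4me3 lists chose the members, so that their marks in EA-HFSCs are a description. The H3K9me3 and H3K27me3 lists of the other 3 populations had no part in the choice.

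The study mapped H3K4me3, H3K9me3 and H3K27me3 by ChIP-seq in skin of wild-type CD1 x FVB mice, given as male in the labels, with 15 to 20 mice pooled for a sort. CD34+ and α6-integrin+ bulge cells were sorted at PD22 to PD25 in early anagen, the phase of self-renewal (EA-HFSCs), and at PD38 to PD44 in late catagen, the phase of quiescence (LC-HFSCs). The CD34- and α6-integrin+ cells of the same ages, a mixture of other keratinocytes, were the non-HFSCs (nEA-HFSCs and nLC-HFSCs). Chromatin was cut with micrococcal nuclease to mono-nucleosomes. The H3K9me3 antibodies came from Millipore and Abcam, the H3K27me3 antibody from Millipore and the H3K4me3 antibody from ActiveMotif. Reads of independent experiments were pooled before MACS called peaks, with the IgG reads of that population as control, so there was 1 list per population and mark, no replicate spread, and no test between populations. A peak carries a score, which is 10 times the negative log10 of its p-value. The lists hold no read numbers. The study's text gives the larger read number to LC-HFSCs and the smaller to EA-HFSCs, and adds that reads did not saturate peak calling for H3K9me3 and H3K27me3, so a missing peak is not a missing mark. Scores were used only within a list. All intervals are 95% Wilson intervals that cover counting error only, and neighbouring peaks are not independent. The H3K9me3 lists held 42277 peaks in EA-HFSCs, 17873 in nEA-HFSCs, 18236 in nLC-HFSCs and 1414 in LC-HFSCs, and the H3K27me3 lists held 25534, 17488, 15273 and 1909, so that the lists of LC-HFSCs leave the least room for an overlap. At the starts of the genes that mark the cells, H3K4me3 lay on 8 of 8 bulge and follicle genes and 4 of 4 basal keratinocyte genes in EA-HFSCs and on 0 of 4 leukocyte genes in any population, while 2 of 4 fibroblast genes, 2 of 4 melanocyte genes and 1 of 3 endothelial genes carried it there too. The start of Cd34, which defines the sort, carried it in EA-HFSCs and LC-HFSCs and in neither non-HFSC population. The other 7 bulge and follicle genes carried it in both non-HFSC populations as well, so they do not tell the populations apart.

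H3K27me3 is laid down by Polycomb repressive complex 2 and covers silent developmental genes, often over long domains around CpG islands. H3K9me3 is laid down by enzymes such as SETDB1 and the SUV39H proteins and is best known from heterochromatin, silenced repeats and clusters of zinc finger genes. H3K4me3 marks the starts of active genes and, together with H3K27me3, the bivalent starts of genes held ready in stem cells. Members therefore carried, in a pool of cells, peaks of both repressive marks with no peak of the promoter mark.

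The sequence of the members is shown first for 3 with very high H3K9me3 scores in EA-HFSCs. The 150 bases at the middle of each are printed for the plus strand of mm9, 5′ to 3′, with every CpG in capitals.
between genes, 27460 bp from the start of Fcgr1, chr3:96128531-96128680: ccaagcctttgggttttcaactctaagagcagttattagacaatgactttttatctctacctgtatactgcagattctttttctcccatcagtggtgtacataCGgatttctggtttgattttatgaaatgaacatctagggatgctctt
Wars2 intron, chr3:99041075-99041224: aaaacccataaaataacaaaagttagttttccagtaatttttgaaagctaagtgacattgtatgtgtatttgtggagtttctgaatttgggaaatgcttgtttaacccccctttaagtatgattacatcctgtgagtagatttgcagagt
Evx2, chr2:74497314-74497463: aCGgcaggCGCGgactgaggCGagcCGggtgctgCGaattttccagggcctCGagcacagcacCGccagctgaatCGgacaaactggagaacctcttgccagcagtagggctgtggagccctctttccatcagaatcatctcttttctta
The middle of the Evx2 member held 9 CpGs, while those of the other 2 held 1 and 0. The next 3 are the highest-scoring members that had an H3K9me3 peak in LC-HFSCs as well.
between genes, 11370 bp from the start of Hoxb13, chr11:96069087-96069236: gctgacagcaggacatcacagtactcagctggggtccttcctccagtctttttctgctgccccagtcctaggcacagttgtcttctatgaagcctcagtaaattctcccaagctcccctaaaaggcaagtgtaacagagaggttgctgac
between genes, 8488 bp from the start of Anks6, chr4:47079822-47079971: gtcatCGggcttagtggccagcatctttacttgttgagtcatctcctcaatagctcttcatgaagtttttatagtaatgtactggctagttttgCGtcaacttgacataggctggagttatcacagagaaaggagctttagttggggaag
between genes, 6405 bp from the start of Gfra4, chr2:130860597-130860746: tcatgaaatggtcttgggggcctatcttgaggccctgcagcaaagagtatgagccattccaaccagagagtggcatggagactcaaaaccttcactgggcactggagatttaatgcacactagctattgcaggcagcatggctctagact
They held 0, 2 and 0 CpGs in these 150 bases. The last 2 are the highest-scoring members with no peak of either mark in any other population.
Hoxc11, chr15:102784001-102784150: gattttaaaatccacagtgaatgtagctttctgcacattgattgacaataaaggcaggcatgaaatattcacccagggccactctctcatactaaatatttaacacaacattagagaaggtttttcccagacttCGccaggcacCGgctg
Arfip1 intron, chr3:85328856-85329005: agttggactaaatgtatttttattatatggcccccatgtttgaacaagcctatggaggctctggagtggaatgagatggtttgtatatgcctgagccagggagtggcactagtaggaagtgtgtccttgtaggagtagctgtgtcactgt
They held 2 and 0 CpGs. Over all 9820 members on placed chromosomes, the middle 150 bases held a median of 1 CpG (quartiles 0 and 3, highest 28), and 25.6% held none. In the 10% of members with the highest scores the median was 2 and 18.7% held none. Of the 106 placed members with H3K9me3 in LC-HFSCs, 37.7% held none.

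Members were poorer in CpG than H3K9me3 peaks on H3K4me3. The CpG ratio, the observed number of CpGs over that expected from the C and G content, had a median of 0.20 in members, with quartiles of 0.13 and 0.30. It was 0.15 in peaks on neither mark, 0.53 in peaks on both H3K27me3 and H3K4me3 and 0.69 in peaks on H3K4me3 alone. Only 191 members (1.95%) had a ratio over 0.6, a level typical of CpG islands, against 35.9% of the peaks on both marks and 71.9% of those on H3K4me3 alone. GC content followed the same order, with medians of 45.9% in members, 44.0% on neither mark, 53.9% on both and 56.7% on H3K4me3 alone. H3K4me3 gathers at CpG islands and its absence was part of the rule, so this order is given as a description. With the members split by score into 10 groups of 983, the ratio was 0.30 in the group with the highest scores and between 0.18 and 0.21 in the others.

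**Figure D1:**
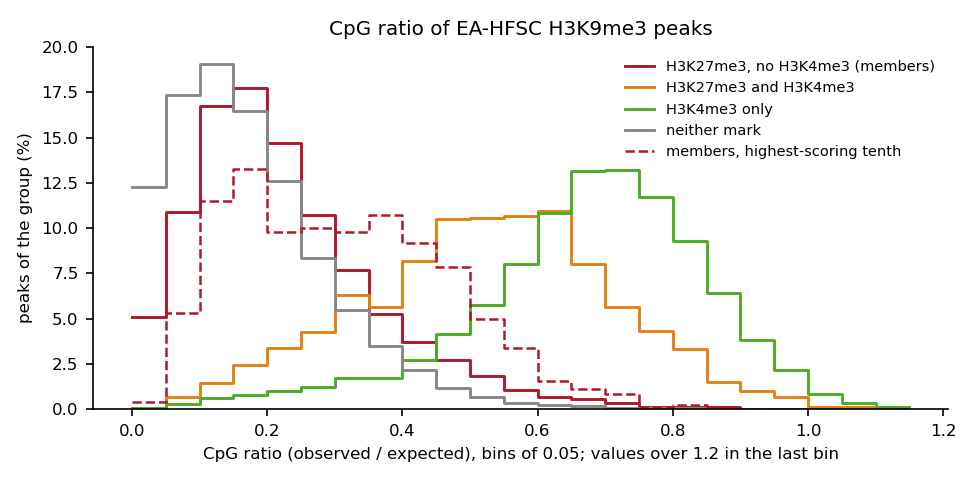
Distribution of the CpG ratio (x axis, observed over expected) in EA-HFSC H3K9me3 peaks of 4 groups, as a percentage of the peaks of each group (y axis). Members (red, median 0.20) lie close to peaks on neither mark (grey, median 0.15), and the 10% of members with the highest scores (dashed, median 0.30) reaches further to the right.

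Most members were weak and short, and a minority was very strong. Scores ran from 40.01 to 1763 with a median of 60.2 and quartiles of 47.5 and 87.5. Widths ran from 276 to 15383 bp with a median of 759.5 bp. A score of 100 or more was reached by 1887 members (19.2%), against 2.10% of the peaks on neither mark, 27.1% of those on H3K4me3 alone and 50.7% of those on both marks. The median width rose from 583 bp in the 10% of members with the lowest scores to 2132 bp in the 10% with the highest. H3K27me3 peaks covered 8132 members (82.7%) along their whole length. At the edge of the rule, 57 members shared under 50 bp with H3K27me3, with a median score of 48.3, and 80 peaks counted as lying on neither mark came within 50 bp of an H3K27me3 peak, with a median score of 49.0. An H3K27me3 peak of nEA-HFSCs met, by at least 1 bp, 20 of those 57 (35.1%) and 23 of those 80 (28.8%). On the other edge, 101 members lay within 100 bp of an H3K4me3 peak and 67 peaks were left out for sharing under 100 bp with one, with median scores of 70.5 and 72.5.

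Most H3K27me3 peaks with a member held a single one, and a few held long runs of members. Members fell on 6912 of the 25534 H3K27me3 peaks of EA-HFSCs (27.1%). Of these, 5435 held 1 member, 1264 held 2 to 4, 185 held 5 to 9 and 28 held 10 or more, with 20 as the highest number. Members in H3K27me3 peaks that held 5 or more numbered 1511 (15.4%). The median distance from a member to the nearest H3K4me3 peak was 21046 bp (quartiles 5564 and 64554 bp), and 719 members (7.31%) lay within 1000 bp of one. An H3K4me3 peak elsewhere along the same H3K27me3 peak was present for 2118 members (21.5%), which had a median score of 76.8 against 57.1 for the rest.

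Of the 10 domains with the most members, several lay over genes of developmental regulators. The domain with 20 members, chr17:85849887-85896314, held no coding gene start and overlapped the uncharacterised gene 1700106N22Rik, and chr5:137179108-137203176, with 13 members, overlapped no protein-coding gene. Others with 13 to 16 members lay over Nkx2-3, Pax7, the Hoxd1, Hoxd3 and Hoxd4 genes, Tlx1, Myl10 and Tbx3, which apart from the muscle gene Myl10 encode transcription factors of embryonic patterning. The domain chr19:45211181-45249295 held 13 members over 38115 bp around Tlx1, a homeobox factor of the spleen. The 13 members together spanned 30775 bp, the first of them reaching past the edge of the domain. No H3K4me3 peak of any population touched the domain. Of the 13, H3K27me3 met 13 in nEA-HFSCs, 13 in nLC-HFSCs and 12 in LC-HFSCs, and H3K9me3 met 2, 4 and 1.

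**Figure D2:**
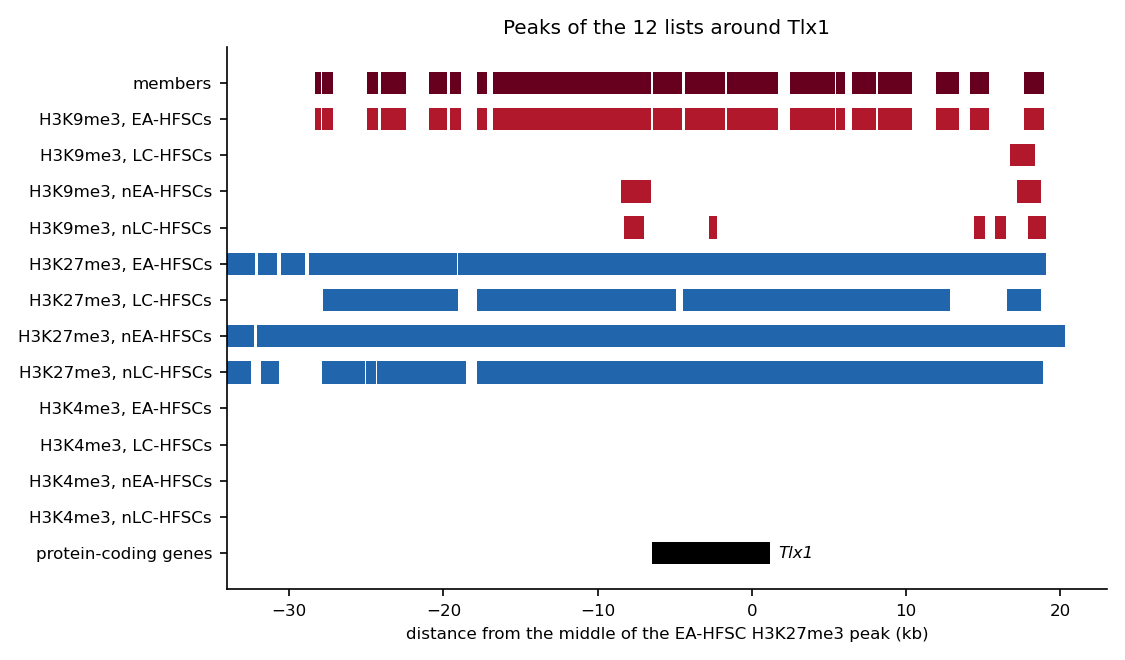
Peaks of the 12 lists (rows) around Tlx1, by distance in kb from the middle of the EA-HFSC H3K27me3 peak over that gene. Bars are peaks. The EA-HFSC members form a dense run over the domain, H3K27me3 recurs in all populations, H3K9me3 in the other populations is limited to scattered short peaks, and no H3K4me3 peak is present.

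Among the 10 members with the highest scores, 9 are described, and most of these lay in or beside genes of that kind. Their scores ran from 1250 to 1560 and their widths from 5935 to 8209 bp. Members at chr2:74493885-74500893 and chr2:74521178-74528698 lay over Evx2 and Hoxd11 in the HoxD region, which patterns limbs and trunk, with scores of 1471 and 1313. The member at chr2:26053199-26061391 lay in Lhx3, a factor of pituitary and motor neurons, with a score of 1287. A member in an intron of Tbx4, a hindlimb factor, at chr11:85701281-85709489 scored 1250, and one in Sim1, a hypothalamic bHLH factor, at chr10:50622409-50629749 scored 1296. A member at chr3:99038089-99044210 scored 1523 and lay in an intron of Wars2, beside Tbx15. The other 3 lay between genes.

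They were at chr3:96125639-96131573 (score 1560, nearest coding start Fcgr1 at 27460 bp), chr12:57618247-57626288 (score 1403, nearest start Nkx2-1, a thyroid and lung factor, at 11607 bp) and chr8:111217738-111224927 (score 1325, nearest start Zfhx3 at 13617 bp). In nLC-HFSCs all 9 had an H3K27me3 peak and 8 had an H3K9me3 peak, the exception being Lhx3. The H3K9me3 scores there lay between 41.8 and 133.9, in a list that begins at 40. In nEA-HFSCs 7 of the 9 had H3K27me3 and 3 had H3K9me3. In LC-HFSCs 3 kept H3K27me3 and none had H3K9me3.

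The 3 members on the highest-scoring H3K27me3 peak with a member, which spanned 11807 bp at Gad2 on chromosome 2, were weak, with scores of 40.6, 53.1 and 61.0. Gad2 encodes an enzyme that makes the transmitter GABA. 

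Most members lay between genes, as did peaks on neither mark. Between protein-coding genes lay 6294 members (64.0%, 63.1 to 65.0%), and 2929 (29.8%) lay in introns. Promoters, taken as 1000 bp before and 100 bp after any transcript start, held 312 (3.17%), other coding exons 153 (1.56%), 3′ untranslated regions 90 (0.92%) and 5′ untranslated regions 42 (0.43%). Of the peaks on neither mark 65.5% lay between genes and 0.81% in promoters. Peaks on H3K4me3 alone had 7.93% and 44.4%, which follows from the mark that chose them. Members at promoters made up 1.83% of the 10% with the lowest scores and 5.19% of the highest.

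A member lay within 3000 bp of the start of 1066 protein-coding genes, 4.77% of the 22367 tested. At these starts H3K4me3 was still found elsewhere within 3000 bp in some population for 572 genes (53.7%, against 62.0% of all genes). For 494 genes no population had an H3K4me3 peak there. By population, H3K4me3 lay at 49.9% of the 1066 starts in EA-HFSCs, 44.2% in nEA-HFSCs, 30.9% in nLC-HFSCs and 21.1% in LC-HFSCs. Over all genes these shares were 60.4, 59.6, 56.6 and 53.9%. Members could not lie on H3K4me3, so the lower shares are partly set by the rule. H3K27me3 lay within 3000 bp of the start of 959 of the 1066 genes in nEA-HFSCs (90.0%, against 15.6% of all genes), 909 in nLC-HFSCs (85.3%, against 11.9%) and 450 in LC-HFSCs (42.2%, against 3.39%). H3K9me3 did so for 83 genes in nEA-HFSCs (7.79%, against 2.80%), 246 in nLC-HFSCs (23.1%, against 11.6%) and 8 in LC-HFSCs (0.75%, against 0.30%). In EA-HFSCs H3K27me3 lay at 1065 of the 1066 starts and H3K9me3 at all of them, against 13.0% and 45.2% of all genes. Since the rule chose on both marks, shares above those of all genes are partly set by it. A start of the 494 genes without H3K4me3 carried H3K27me3 in LC-HFSCs for 193 (39.1%).

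Most families of embryonic transcription factors had members at a larger share of their starts than the 4.77% of all genes. Among homeobox and Pax genes outside the Hox clusters, which specify organs and neurons, 71 of 136 had one (52.2%, 43.9 to 60.4%). Among T-box genes, regulators of limb and heart, 9 of 17 did (52.9%), among neural and mesodermal bHLH genes 18 of 43 (41.9%), among GATA genes 2 of 6, among forkhead genes 13 of 43 (30.2%) and among Hox genes 11 of 40 (27.5%). Sox genes had 1 of 19, which was Sox3 with a score of 60.2. These families together held 125 of 304 genes with a member (41.1%). In EA-HFSCs H3K27me3 lay near the starts of 115 of the 136 homeobox and Pax genes and 24 of the 40 Hox genes. It also lay near 24 of the 43 forkhead, 12 of the 17 T-box, 33 of the 43 bHLH and 5 of the 6 GATA starts. For Sox genes, with their single member, it lay near 11 of 19. Over all genes the share was 13.0%. The part of this in the family shares was not tested.

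Within homeobox and Pax genes strong members lay at Evx2, Lhx3, the head factor Otx2 (1248) and the heart factor Nkx2-5 (1176). At none of these 4 starts did any population have H3K4me3, but 37 of the 71 homeobox and Pax genes with a member had it there in some population. Of the genes with a member in the other families, 6 of 11 Hox, 9 of 13 forkhead, 4 of 9 T-box and 12 of 18 bHLH genes did too. In the Hox clusters the strongest were at Hoxd10 (1313, the member named with Hoxd11), Hoxc12 (1183), Hoxa13 (1102), Hoxd13 (749) and Hoxb13 (726), which are genes of the posterior body. Forkhead members led at Foxa1 (866) and Foxa2 (814), both endoderm factors, with Foxd2 (577) and Foxe1 (534) also high. Tbx15 (1523, the member in Wars2), Tbx4 (1250), Tbx18 (1190), Tbx5 (742) and Tbr1 (573) led the T-box genes. Gata4 (958), a heart factor, stood beside Gata3 (70.6), a factor used in the hair follicle itself. Neurog2 (877), Tal1 (679), Olig3 (671), Twist1 (420) and Tcf21 (404) led the bHLH genes.

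The 204 members within 3000 bp of a start of these 7 families had a median score of 220, beside 60.2 over all members, and 122 of them (59.8%) were among the 10% of members with the highest scores. Their median CpG ratio was 0.39. H3K27me3 peaks met 188 in nEA-HFSCs (92.2%), 194 in nLC-HFSCs (95.1%) and 109 in LC-HFSCs (53.4%). H3K9me3 peaks met 66 in nLC-HFSCs (32.4%), 12 in nEA-HFSCs (5.88%) and 0 of 204 in LC-HFSCs, which allows a share of up to 1.47% if the limit is set at 3 counts (Wilson upper limit 1.85%). Over all members the H3K27me3 shares were 59.4, 51.5 and 18.7% in nEA-HFSCs, nLC-HFSCs and LC-HFSCs, and over the 10% of members with the highest scores they were 88.8, 89.8 and 48.9%. The H3K9me3 shares in that 10% were 31.6% in nLC-HFSCs, 12.2% in nEA-HFSCs and 1.83% in LC-HFSCs.

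Genes of nerve and muscle excitability also had members more often than the 4.77% of all genes. Potassium channel genes had 27 of 94 (28.7%), glutamate, GABA and glycine receptor genes 12 of 50 (24.0%), and voltage-gated sodium and calcium channel genes 8 of 40 (20.0%). In the same order, EA-HFSC H3K27me3 lay near 52, 27 and 20 of these starts, against 13.0% of all genes. Whether this bears on the shares with a member was not tested. The scores were lower than at transcription factors, with the highest at Kcnj5 (313) and Kcnc2 (273) among potassium channels, Cacng7 (143) among sodium and calcium channels and Grik3 (103) among receptors. Imprinted genes had 7 of 37 (18.9%), led by the growth regulators Grb10 (340) and Gnas (240), and collagen genes had 7 of 43 (16.3%), led by Col15a1 (123) and the cartilage collagen Col2a1 (118). Other protocadherin and cadherin genes had 5 of 35, and fibroblast growth factor genes 3 of 22, of which Fgf4 was highest (163).

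Zinc finger and chemoreceptor genes, which lie in tandem arrays, had members at a smaller share of starts than all genes. Zfp zinc finger genes had members at 7 of 344 starts (2.03%). EA-HFSC H3K9me3 of any kind lay near 228 of these starts, but EA-HFSC H3K27me3, which the rule also requires, lay near only 25. It lay near the starts of 39 olfactory receptor, 3 vomeronasal receptor and 5 keratin and keratin-associated protein genes. Whether this bears on the shares of these families was not tested. Olfactory receptor genes had 11 of 1087 (1.01%), vomeronasal receptor genes 1 of 320 (0.31%), and keratin and keratin-associated protein genes 2 of 97 (2.06%), which were the hair keratin Krt83 (115) and Krtap5-4 (43.2). Clustered protocadherin genes had 1 of 24 (4.17%, 0.74 to 20.2%), near the share of all genes. Solute carrier genes had 22 of 347 (6.34%), led by the vesicular GABA transporter Slc32a1 (388). Wnt ligands had 1 of 19 (Wnt8b, 56.6), and BMP and GDF ligands had 0 of 21, although EA-HFSC H3K27me3 lay near 11 and 9 of these starts. Among 26 regulators of bulge stem cells 2 had a member (7.69%), Wif1 (74.3), a Wnt inhibitor, and Gata3, and both starts had H3K4me3 in all 4 populations.

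**Figure D3:**
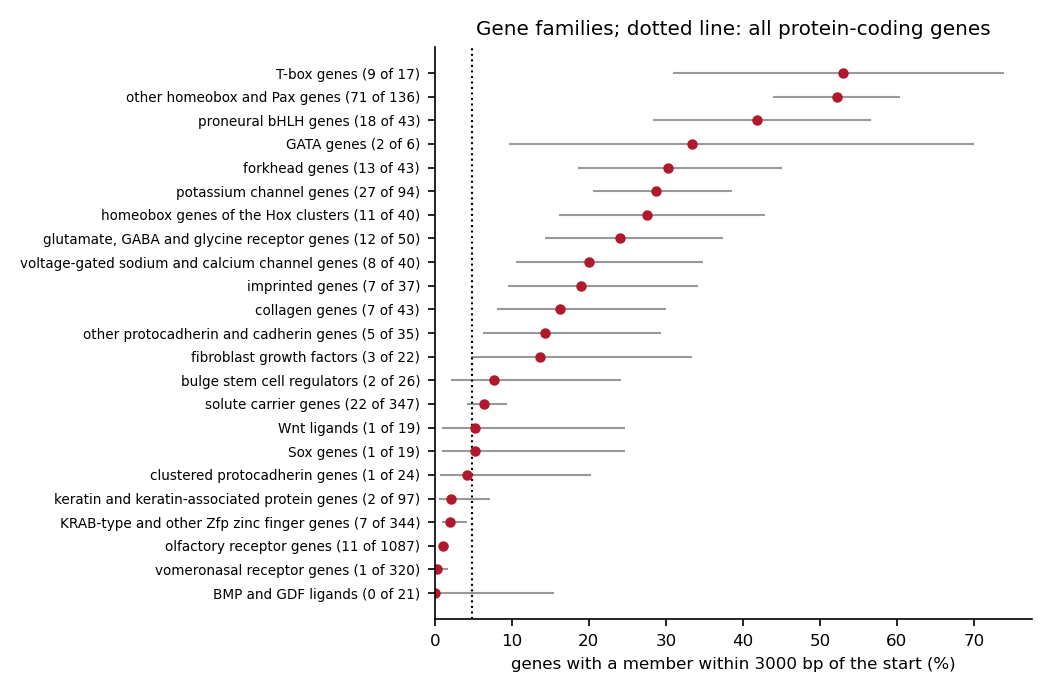
Share of genes with a member within 3000 bp of the start (x axis, %) for 23 gene families, with the number of genes in brackets; bars are 95% Wilson intervals. The dotted line is the 4.77% of all protein-coding genes, and homeobox, T-box, bHLH and channel genes lie to its right.

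Counted over whole genes and 3000 bp around them, 10 genes held between 22 and 67 members each. Long gene models led, as with Gm20388 (67 members in a model of 4434882 bp) and Fgfr2 (38 in 3009069 bp), a growth factor receptor whose model in this annotation is unusually long. Per length, Skap1 was the densest of the 10 with 41 members (13.6 per 100 kb). Skap1, an adaptor of T cells, lies beside the HoxB cluster. Rnf220 followed with 29 (12.5 per 100 kb) and Cux1, a homeobox gene, with 31 (9.53 per 100 kb). Clstn2 held 33, Mecom, a regulator of blood stem cells, 24, Spon1 24, Arhgap26 23 and Zfp521 22. The state of these members elsewhere varied from gene to gene. At Skap1 37 of 41 members met H3K27me3 in nLC-HFSCs and 17 did in LC-HFSCs, and at Rnf220 26 of 29 and 7 did. At Clstn2 only 1 of 33 members met H3K27me3 in nEA-HFSCs, 1 in nLC-HFSCs and 0 in LC-HFSCs. Cux1 members met it in 3, 2 and 2 of 31 cases. None of the members in these 10 genes met H3K9me3 in LC-HFSCs, where 1.11% of all members did. For H3K27me3 the shares of all members were 59.4% in nEA-HFSCs, 51.5% in nLC-HFSCs and 18.7% in LC-HFSCs.

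In the other populations H3K27me3 met a larger share of members than H3K9me3 did. The H3K27me3 peaks also spanned more sequence, which left more room for a 1 bp overlap. They spanned 68.3 Mb against 24.0 Mb of H3K9me3 in nEA-HFSCs, 35.9 against 11.7 Mb in nLC-HFSCs and 7.41 against 2.75 Mb in LC-HFSCs. The part of this in the difference between the marks was not tested. H3K27me3 peaks met 5836 members in nEA-HFSCs (59.4%, 58.4 to 60.3%), 5058 in nLC-HFSCs (51.5%, 50.5 to 52.4%) and 1841 in LC-HFSCs (18.7%, 18.0 to 19.5%). Over all 42277 H3K9me3 peaks of EA-HFSCs the shares were 21.9%, 18.3% and 6.34%. Since H3K27me3 in EA-HFSCs chose the members, a share above these is partly set by the rule, and the peaks on both marks, also chosen on H3K27me3, had still higher shares of 92.7%, 86.1% and 35.2%. The share was higher in nEA-HFSCs than in nLC-HFSCs, but with each list of a mark limited to the same number of top-scoring peaks it was 79.8% in nEA-HFSCs and 88.0% in nLC-HFSCs.

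H3K9me3 peaks met 1026 members in nLC-HFSCs (10.4%, 9.85 to 11.1%), 679 in nEA-HFSCs (6.91%, 6.42 to 7.43%) and 109 in LC-HFSCs (1.11%, 0.92 to 1.34%). The shares over all H3K9me3 peaks of EA-HFSCs were 9.85%, 8.60% and 1.79%. The order of nLC-HFSCs and nEA-HFSCs turned to 4.85% and 5.14% when at least 50% of a member had to be covered. With the 1 bp overlap, the members' shares were close to this background in nLC-HFSCs and below it in the other 2 populations. Peaks on both H3K27me3 and H3K4me3 had 14.8% in nLC-HFSCs. They had 3.73% in nEA-HFSCs and 0.50% in LC-HFSCs, both lower than the members. Of the peaks on neither mark 13.0% recurred in nEA-HFSCs, 2.85% in LC-HFSCs and 7.00% in nLC-HFSCs. Peaks on H3K4me3 alone had the opposite profile, with 15.2% in nLC-HFSCs, 0.37% in nEA-HFSCs and 0.17% in LC-HFSCs.

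**Figure D4:**
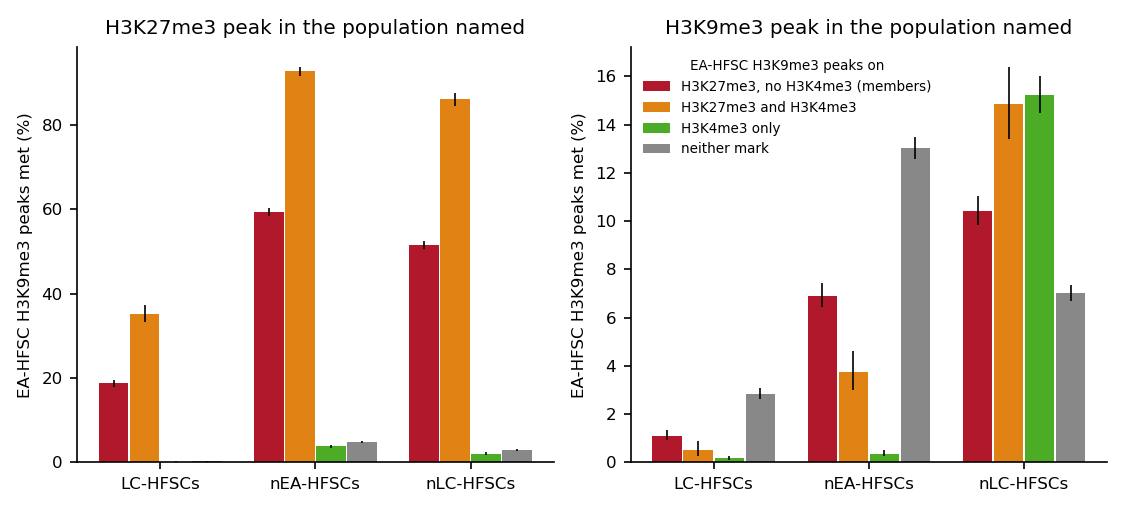
Share of EA-HFSC H3K9me3 peaks (y axis, %) that met an H3K27me3 peak (left) or an H3K9me3 peak (right) in the 3 other populations, for 4 groups of peaks; error bars are 95% Wilson intervals and the y axes differ. Members reach 59.4% for H3K27me3 in nEA-HFSCs but 6.91% for H3K9me3, from lists that span 68.3 and 24.0 Mb.

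The score of a peak bears on how often it recurs, and the groups differ in score, so they were also compared in bands of equal score. Between scores of 100 and 200, H3K9me3 in nEA-HFSCs met 11.1% of 1301 members and 45.5% of 435 peaks on neither mark. In LC-HFSCs it met 1.92% and 16.6%, and in nLC-HFSCs 17.4% and 31.3%. Of the 565 peaks on both H3K27me3 and H3K4me3 in this band it met 3.89% in nEA-HFSCs, 0.53% in LC-HFSCs and 11.2% in nLC-HFSCs. In the band from 40 to 50 the shares in nEA-HFSCs were 4.49% of 3071 members and 9.03% of 11741 peaks on neither mark. Over the 4 bands from 40 to 200, the share of members with H3K9me3 in nEA-HFSCs and LC-HFSCs was thus below that of peaks on neither mark. In nLC-HFSCs this held from 70 to 200 only, and the shares were 5.08% and 4.51% from 40 to 50 and 7.37% and 7.25% from 50 to 70. Above 200 only 24 peaks on neither mark remained.

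Among members, recurrence rose with score. From the lowest to the highest of the 10 groups, H3K27me3 rose from 47.1% to 88.8% in nEA-HFSCs, from 37.3% to 89.8% in nLC-HFSCs and from 10.6% to 48.9% in LC-HFSCs. H3K9me3 rose from 4.68% to 31.6% in nLC-HFSCs and from 4.88% to 12.2% in nEA-HFSCs. In LC-HFSCs it went from 0.41% (4 of 983) to 1.83% (18 of 983). Even of the highest group, with scores of 141 to 1763, only 18 of 983 members had an H3K9me3 peak in LC-HFSCs.

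**Figure D5:**
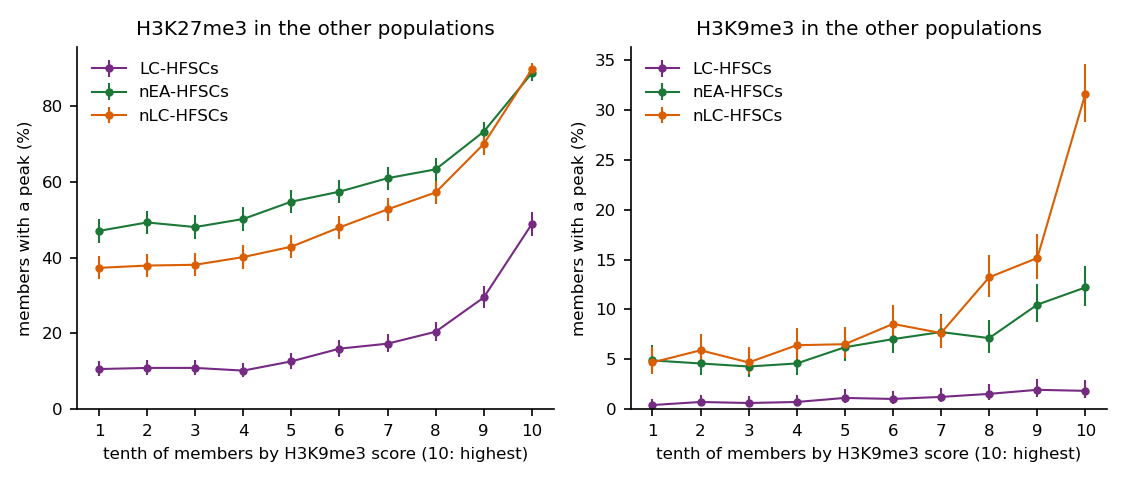
Share of members (y axis, %) with an H3K27me3 peak (left) or H3K9me3 peak (right) in LC-HFSCs, nEA-HFSCs and nLC-HFSCs, by group of the H3K9me3 score in EA-HFSCs (x axis, 983 members each); bars are 95% Wilson intervals. H3K27me3 reaches 88.8% and 89.8% in the non-HFSCs, while H3K9me3 in LC-HFSCs stays under 2%.

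Over both marks together, 2988 members (30.4%) had no peak of either mark in any other population, and their median score was 52.2. H3K27me3 in both non-HFSC populations with no other peak was the state of 2416 (24.6%). H3K27me3 in all 3 populations without H3K9me3 was the state of 1371 (13.9%), with a median score of 79.7, and H3K27me3 in nEA-HFSCs alone that of 1139 (11.6%). A total of 8429 members (85.7%) had H3K9me3 in no other population. The shares of these combined states over all H3K9me3 peaks of EA-HFSCs were not computed, so they are not read as particular to members. List by list, H3K9me3 met 10.4% of members in nLC-HFSCs, 6.91% in nEA-HFSCs and 1.11% in LC-HFSCs. Over all H3K9me3 peaks of EA-HFSCs it met 9.85, 8.60 and 1.79%. Of the 1841 members with H3K27me3 in LC-HFSCs, 1727 also had it in nEA-HFSCs and 1727 in nLC-HFSCs, and 41 had it in LC-HFSCs alone. Members with H3K27me3 in LC-HFSCs had a median CpG ratio of 0.25 against 0.19 for those without, and were wider, with medians of 1067 and 713 bp.

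Most of the 109 members with H3K9me3 in LC-HFSCs recurred in the non-HFSCs as well. Of the 109, 88 had H3K9me3 in nEA-HFSCs (80.7%) and 68 in nLC-HFSCs (62.4%), and 58 had it in all populations, while 11 had it in LC-HFSCs and EA-HFSCs alone. Of the other members, 6.08% had it in nEA-HFSCs and 9.85% in nLC-HFSCs. The same shares for H3K9me3 peaks outside the members were not computed. H3K27me3 was less common on the 109 than on the other members in nEA-HFSCs, with 39 of 109 (35.8%) against 59.6%, and nearly equal in LC-HFSCs, with 20 (18.3%) against 18.7%. Their GC content (median 43.0%) and CpG ratio (0.14) were below those of the other members (45.9% and 0.20). Members with H3K9me3 in nEA-HFSCs had a CpG ratio of 0.16, and 76.6% of them lay between genes, against 63.1% of the rest. Those with H3K9me3 in nLC-HFSCs had a ratio of 0.20, equal to the rest.

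The strongest of the 109 was chr11:96067000-96071323, 11370 bp from the start of Hoxb13, with an EA-HFSC score of 611, an LC-HFSC H3K9me3 score of 101 and an nEA-HFSC score of 445. It had H3K27me3 in both non-HFSC populations and not in LC-HFSCs. Next came a member 8488 bp from Anks6 (543) and one at chr2:130858925-130862419, 6405 bp from Gfra4 (512), which had both marks in all populations. Members beside Tcfl5 (413, 116 bp from its start) and Gsx1, a forebrain homeobox gene (382, at 4206 bp), also had both marks everywhere. A member in Pcdhgc5 of the protocadherin cluster (393) had H3K9me3 in all populations, with scores of 453 in nEA-HFSCs and 240 in LC-HFSCs, and H3K27me3 in EA-HFSCs alone. The others of the top 10 were nearest to Gm5449, Zranb2, Zfp167 and Sgsm1, with EA-HFSC scores from 232 to 243.

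Both marks in both non-HFSC populations were present on 156 members (1.59%), and both marks in all 4 populations on 14 (0.14%). The 156 had a median score of 123. The strongest after those already named lay at Cdkn2a (1198), which encodes cell cycle inhibitors, Tbx15 (1102), Hoxa13 (1102), Zdbf2, an imprinted gene (1058, at 22718 bp), Ostm1 (967), the neural zinc finger gene Zic5 (908) and B4galt5 (854). At Cdkn2a the member chr4:88917721-88923197 had H3K9me3 scores of 42.2 in nEA-HFSCs and 117 in nLC-HFSCs and no peak of either mark in LC-HFSCs.

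The 14 included the last member of the Tlx1 domain, chr19:45247900-45249152, 24174 bp from the start of the gene. Its H3K9me3 score was 111 in EA-HFSCs, 53.7 in LC-HFSCs, 105 in nEA-HFSCs and 78.6 in nLC-HFSCs, although scores cannot be compared between lists. Its CpG ratio was 0.26. Others lay in an intron of Ostm1.

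H3K27me3 peaks that held a member were wider and met LC-HFSC H3K27me3 at a higher share than those without H3K9me3. Among H3K27me3 peaks of EA-HFSCs with no H3K4me3, 6021 held a member and 16945 had no H3K9me3. The first had a median width of 1817 bp and the second 1208 bp. LC-HFSC H3K27me3 met 10.6% of the first and 1.84% of the second. Because wide peaks are more likely to meet any other peak, they were compared in bands of width. Between 4000 and 8000 bp, LC-HFSC H3K27me3 met 29.4% (26.6 to 32.4%) of 921 peaks with a member and 13.0% (10.2 to 16.3%) of 471 without H3K9me3. From 2000 to 4000 bp the shares were 9.14% of 1510 and 4.78% of 2576. Up to 1000 bp they were 0.80% of 994 and 0.54% of 5226, with intervals that overlapped (0.41 to 1.58% and 0.37 to 0.77%). Widths were not fully matched within a band, with medians of 5352 and 4781 bp between 4000 and 8000 bp. The H3K27me3 scores differed too, with medians of 489 and 270 in that band. The part of width and score in this difference was not tested.

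Long stretches without an H3K27me3 peak lay at HoxD in nEA-HFSCs and at HoxC in both non-HFSC populations. Of the 159 H3K27me3 peaks of EA-HFSCs that exceeded 20000 bp and held a member, 150 met an H3K27me3 peak in nEA-HFSCs, 156 in nLC-HFSCs and 119 in LC-HFSCs. At HoxD the EA-HFSC peak chr2:74476284-74543201, from Evx2 to Hoxd8, had none in nEA-HFSCs, yet nEA-HFSC peaks ended 1317 bp before it and began again 206 bp after it. A like gap in nEA-HFSCs lay at chr5:137179108-137203176, the domain that overlapped no protein-coding gene, with peaks 468 bp before and 145 bp after it. Across HoxC, at chr15:102762331-102818324 from Hoxc12 to Hoxc9, neither nEA-HFSCs nor nLC-HFSCs had a peak, and the nearest lay 744 bp after it in nEA-HFSCs and 2460 bp before it in nLC-HFSCs. Whether these gaps are in the chromatin or in the peak calls was not tested. They bear on Evx2 and Hoxd11 above, and on the Hoxc11 member, which counts among those without a peak elsewhere.

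Members were spread over all chromosomes but unevenly. Chromosome 5 held the most, 901 (30.0% of its H3K9me3 peaks), and chromosome 19 had the highest density, 6.57 per Mb. The lowest autosomal density was on chromosome 16, 2.13 per Mb. Chromosome X held 63 (13.6% of its H3K9me3 peaks, 0.38 per Mb) and had only 124 of the H3K27me3 peaks. On unplaced sequence lay 10 members.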

How the data were processed

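The peak lists analysed here were made by the authors, who trimmed reads with Trimmomatic (version 0.22 in the submitters' processing notes), aligned them to mm9 with Bowtie2 and called peaks with MACS against IgG. The deposited values are peak positions with 1 score each, and the lowest scores, 50 for H3K4me3 and 40 for the other marks, correspond to p-values of 1e-05 and 0.0001. Replicates were pooled by the authors before calling, and IgG lists were not used here. Peaks were intersected with a 1 bp minimum in numpy 2.4.6 and pandas 2.3.3 and checked against bedtools 2.31.1 and on simulated peaks, where 5 of 5 settings were recovered exactly. Sequence was read with pysam 0.24.0 from mm9, and genes came from GENCODE vM1 (22367 protein-coding genes). Of all peaks, 733 lay on unplaced sequence and were not placed relative to genes.

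The members and gene lists were chosen with earlier results of these data known. Members were named by score (the 10 highest, those on the highest-scoring H3K27me3 peak, and up to 10 for each group with H3K9me3 or both marks elsewhere), and genes by the number of members (10) or, within each family, by score (up to 5). A few genes named by this rule, and regions around them, are not reported here. The members without a peak elsewhere, the domains with the most members, the domain drawn around Tlx1 and the gaps at HoxD and HoxC were picked after their values were seen. Alternatives covered score, overlap, H3K4me3 distance, list length, merging, chromosomes, gene types and start window.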

Additional observations from a re-analysis of the deposited data

How the results depend on the processing

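No paired analysis was possible because there is 1 list per population and mark, and leaving out a replicate was not possible because replicates were pooled. Of 101 values under the alternatives, 51 stayed within their interval (or within 1.5 times for a count) and 50 moved. Limiting H3K4me3 to EA-HFSCs, autosomes only and a start window of 2500 bp moved none. Shares below follow the order H3K27me3 in nEA-HFSCs, nLC-HFSCs and LC-HFSCs, then H3K9me3 in the same order. With scores of 50 or more in every list there were 6279 members on 4305 H3K27me3 peaks, with shares of 65.7, 57.9, 20.1, 5.99, 8.70 and 0.80% and a median CpG ratio of 0.205. With scores of 100 or more there were 1905 members on 1175 H3K27me3 peaks and 437 genes, 61.6% lay between genes, the CpG ratio was 0.278, and the shares that moved were H3K27me3 in nEA-HFSCs (81.5%) and nLC-HFSCs (79.0%) and H3K9me3 in nEA-HFSCs (2.83%), nLC-HFSCs (4.41%) and LC-HFSCs (0.21%). With lists of equal length (14718 H3K4me3, 1909 H3K27me3 and 1414 H3K9me3 peaks) there were 709 members on 409 H3K27me3 peaks and 228 genes, 56.3% lay between genes, the CpG ratio was 0.379 and the shares were 79.8, 88.0, 54.0, 1.27, 11.1 and 0.85%. Asking for 50% of the member to be covered moved H3K27me3 in nLC-HFSCs to 49.5% and in LC-HFSCs to 17.7%, and H3K9me3 to 5.14, 4.85 and 0.87%, so the higher H3K9me3 share of nLC-HFSCs over nEA-HFSCs was lost. With no H3K4me3 within 1000 bp the H3K27me3 shares were 57.0, 49.0 and 17.5%, and 65.0% lay between genes. Merging peaks less than 1000 bp apart gave 50.0, 40.8 and 11.8%, H3K9me3 in nEA-HFSCs of 8.00% and a CpG ratio of 0.193. Leaving out H3K27me3 peaks over 20000 bp, chosen after seeing the data, gave 55.6, 46.7 and 16.5%, H3K9me3 in nLC-HFSCs of 9.08% and a CpG ratio of 0.196. With genes of all kinds, 59.5% lay between genes. Limits on list length, score and overlap change by construction which peaks are members. The cause of these moves was not tested. Peak calling for H3K9me3 and H3K27me3 was not saturated by the study's text, so absence of a peak says only that none was called.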

Other observations

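Members also overlapped non-coding genes. Of 1273 lincRNA genes, 141 (11.1%) overlapped a member, and of 1577 miRNA genes 18 (1.14%) did. Both shares count any overlap with the gene, so longer genes are met more easily. The share over all genes was not computed on this measure. The best scored among miRNA genes with a RefSeq mature sequence were Mir1247 (139), which lies beside the imprinted gene Dio3, and Mir129-2 (136), which is known from neurons. Both had H3K27me3 in nEA-HFSCs and nLC-HFSCs, Mir129-2 also in LC-HFSCs, and neither had H3K9me3 in another population. Their mature forms follow, with the seed (bases 2 to 8) in capitals.
mmu-miR-1247-5p: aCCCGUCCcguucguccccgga
mmu-miR-1247-3p: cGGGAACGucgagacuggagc
mmu-miR-129-5p: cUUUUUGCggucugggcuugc
mmu-miR-129-2-3p: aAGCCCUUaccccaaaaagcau
Mir322 and Mir503, which lie side by side on chromosome X, shared 1 member with a score of 46.2, and it met H3K27me3 in both non-HFSC populations.
mmu-miR-322-5p: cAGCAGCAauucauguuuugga
mmu-miR-503-5p: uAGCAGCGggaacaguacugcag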
